A study of Mus musculus with 6 samples.

Results

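Genes of synaptic vesicle exocytosis were followed in the ventral lumbar cord of SOD1G93A mice. They were chosen by name from the deposited table: synaptotagmins (Syt), syntaxins (Stx), vesicle-associated membrane proteins (Vamp), the SNAP family and complexins (Cplx) with a number, all names that start with Stxbp, Sv2, Unc13 or Rims, and Syn1, Syn2, Syn3, Syp, Nsf, Bsn and Pclo. Of 28162 genes in the table, 73 had such a name, and 68 of them had a mean of at least 10 normalized read counts over the 6 libraries and are the members described here. Just inside that limit lay Stx11 (mean 16.2) and Syt10 (22.3), and just outside it Vamp9 (5.78) and Syt8 (3.24). Cplx3, Cplx4 and Stx19 also stayed below it, at means of 1.01, 0.188 and 0.595.

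The mice of both groups carried the SOD1G93A transgene, a mutant superoxide dismutase 1 used as a model of amyotrophic lateral sclerosis, and both received an adeno-associated virus (AAV) intrathecally on day 74. In the 3 control libraries the virus carried GFP (AAV-GFP), and in the other 3 it carried NDNF, a secreted neurotrophic factor (AAV-NDNF). Tissue was taken on day 104, 30 days later. The promoter in the vector, the sex of the mice and the number of mice per library are unknown here from the labels, and animals without the transgene or without a virus were not analysed here, so the values compare 2 vectors within diseased cord. The libraries are labelled as biological replicates.

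A synaptic vesicle fuses with the nerve terminal when its SNARE protein, a Vamp, zips together with syntaxin-1 and SNAP-25 of the plasma membrane. Munc13 (Unc13) proteins prepare this assembly, complexins hold it ready, and synaptotagmins trigger fusion when calcium enters. RIM proteins, bassoon and piccolo build the active zone where vesicles dock, synapsins tether the vesicle reserve, and NSF takes used SNARE complexes apart. Motor neurons drive muscle through such terminals, and their cell bodies in the ventral horn are themselves covered by synapses. Other syntaxins and Vamps serve traffic between the Golgi, endosomes and lysosomes in every cell type.

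Reads assigned to genes ran from 15335789 to 20060987 per library. The delivered gene checked the labels, with Ndnf (chromosome 6, 65671590 to 65712326, plus strand, mm10) at 171, 128 and 158 normalized counts in AAV-GFP libraries 1 to 3 (called controls below) and 5286, 7077 and 674 in AAV-NDNF libraries 1 to 3. All 11 motor neuron markers, Chat among them, were above the limit of 10 of the filter. A pair of libraries stood apart. Control 2 had the fewest dorsal horn transcripts: 13 of the 17 tested dorsal horn neuron genes were lowest there, and the summed level of the 20 listed was 4284, with 6009 and 6181 in the other controls and 4757 to 7127 after AAV-NDNF. AAV-NDNF library 3 had the least Ndnf of its group, and lower values of long transcripts than the mean of AAV-NDNF libraries 1 and 2. Among tested genes, its median level relative to that mean was 1.15 for exon lengths under 3 kb and 0.82 for 10 kb or more. Each was left out in turn.

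The members spanned a wide range of levels. To compare genes with each other, the mean normalized count over the 6 libraries was divided by the kilobases of exon annotated for the gene (GENCODE M21), which understates a gene whose shorter transcripts dominate. On this scale the complexin Cplx1 led with 10633 counts per kb, followed by Snap25 (5756) and Syt11 (3463). Vamp1 (1927) and Syp (1885) stood lower, and their ranges over the 6 libraries, 1799 to 2067 and 1661 to 2150.2, overlapped. The lowest members were Stx11 (3.86) and Unc13d (4.81), which serve granule release in blood cells, and Unc13b (8.94).

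**Figure D1:**
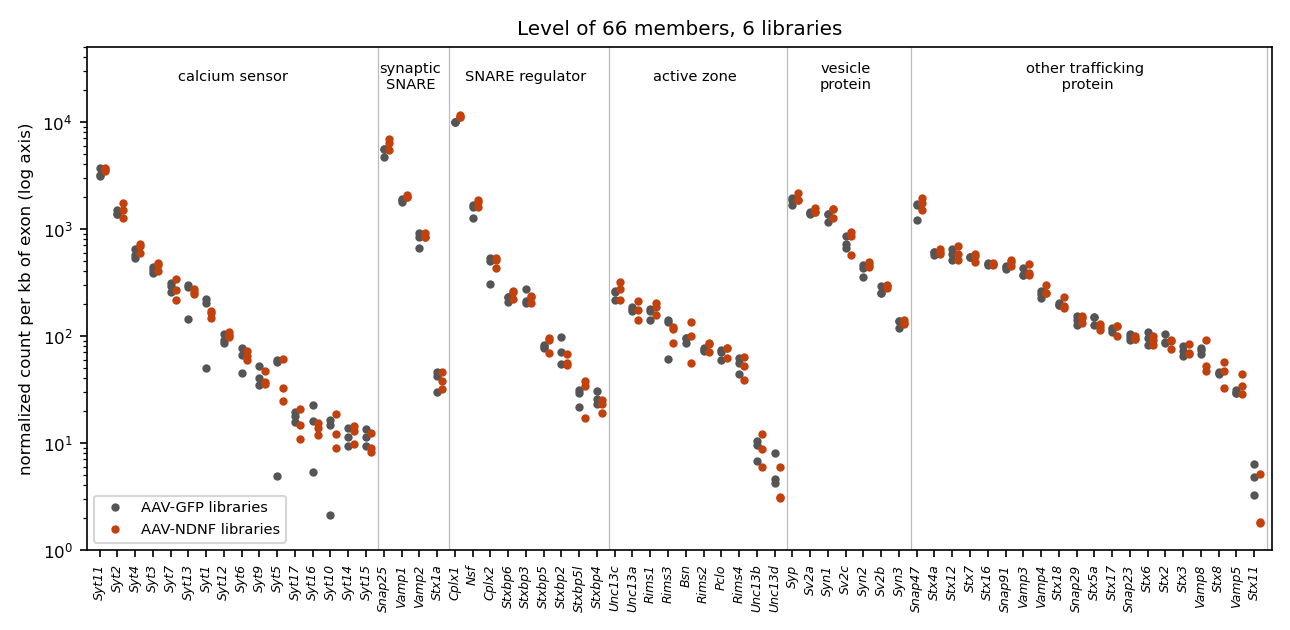
Normalized read counts per kb of annotated exon (log axis) for 66 members, ordered by level within 6 role groups; each point is a library, grey for AAV-GFP and orange for AAV-NDNF. Cplx1 is highest at a mean of 10633, and single grey points far below the others mark control 2 at Syt1, Syt5, Syt10, Syt16, Syt13 and Rims3.

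The comparison of AAV-NDNF with AAV-GFP asked whether transcripts of the release machinery differed 30 days after gene delivery. Of the 68 members, 47 had a slightly higher mean log2 level after AAV-NDNF, and none passed the test. Fold changes below are differences of group means of log2(normalized count + 1), positive where AAV-NDNF was higher, and ± marks the SD (n = 3 libraries per group). In limma over 17372 genes, 0 of 68 members had a Benjamini-Hochberg adjusted p under 0.05, where 0% of all genes did. The delivered gene Ndnf, with a fold change of 4.27 (SE 0.85), did not pass either (limma adjusted p = 0.516). The AAV-NDNF values of Ndnf ranged from 674 to 7077, and without AAV-NDNF library 3 its limma adjusted p was 1.1e-08. The members had a median SE of 0.13, so the Ndnf result does not show what the test could detect in them. A lack of passing members is by itself no evidence of equal levels. At an unadjusted p under 0.05 there were also 0 of 68 members, beside 4.67% of all genes (1.12% higher and 3.55% lower), and 0 in edgeR's quasi-likelihood test on whole reads, where the share over all genes was 4.67%. The authors' deposited table lists 0 members with an adjusted p under 0.05 (0.266% of the genes with an adjusted p there), its smallest member p being 0.0701 at Cplx1.

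Fold changes of the members were small. They lay above 0 for 47 members and below 0 for 21, a share of 69.1% above 0 beside 50.1% of all genes, with a median of 0.077 beside 0.000492. Abundant genes leaned the same way in general: of all 3954 genes with a mean of 1000 or more, 60.1% were above 0, beside 32 of 37 members at that level. In 63 of 68 members the fold change was between −0.3 and 0.3, beside 13917 of all 17372 genes. At a mean of 1000 or more this held for 37 of 37 members and for 3848 of 3954 genes. The groups did not overlap at 4 members, Cplx1, Vamp1, Sv2a and Snap91, each AAV-NDNF library lying above each control; that is 5.88% of members beside 4.24% of all genes. In the other direction 0 members were without overlap, beside 5.5% of all genes (9.74% in either direction).

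Over all members the lean towards higher values was not seen without control 2, though most abundant members were still above 0. With that library left out, 34 members were above 0 and 34 below, beside 50.4% of all genes above 0, and the median fold change was 0.00323. Of the 37 members with a mean of 1000 or more, 27 were then above 0 (median 0.063), beside 62.9% of all such genes. The fold change changed sign at 21 of 68 members, beside 3141 of all 17372 genes. Then 0 members had an adjusted p under 0.05 (0.248% of all genes), and 3 had an unadjusted p under 0.05, all lower: Syt1, Stx5a and Rims3. Those 3 are 4.41% of members, beside 4.71% of all genes (1.3% higher and 3.41% lower).

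**Figure D2:**
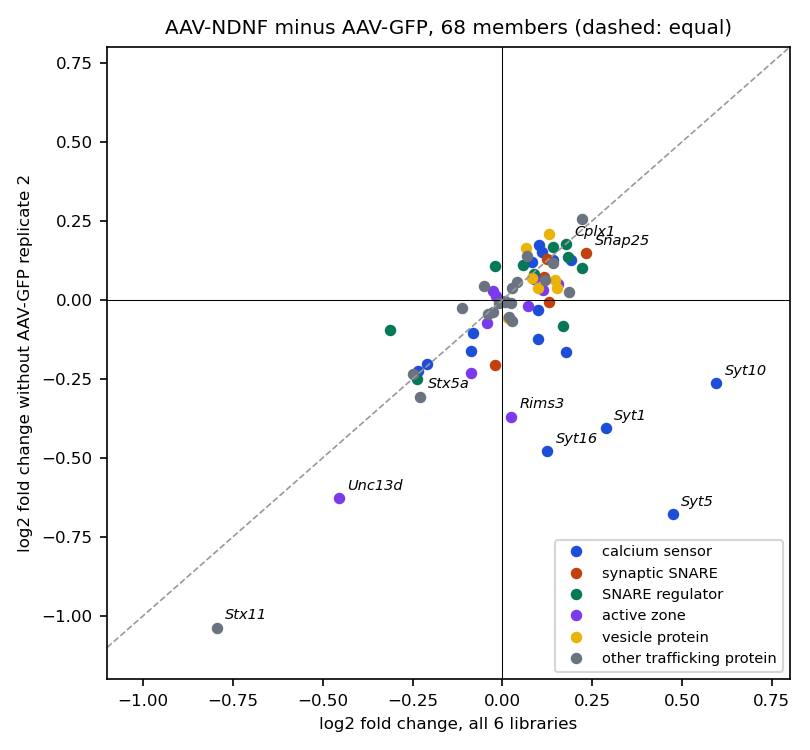
Log2 fold change of the 68 members (AAV-NDNF minus AAV-GFP) with all 6 libraries on the x axis and without AAV-GFP replicate 2 on the y axis, coloured by role; the dashed line marks equal values. Most points lie near 0, and Syt1, Syt5, Syt10, Syt16 and Rims3 lie far below the line, Syt1 moving from 0.29 to −0.41.

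The SNAREs of the synaptic vesicle and the nerve terminal membrane were abundant except Stx1a, and 4 of the 5 were higher in the mean after AAV-NDNF without passing the test. Snap25 (chromosome 2, 136713453 to 136782428, plus strand) encodes SNAP-25, the membrane-anchored SNARE of nerve terminals. Its normalized counts were 38137, 31726 and 37857 in controls 1 to 3 and 36768, 43461 and 46589 in AAV-NDNF libraries 1 to 3. AAV-NDNF library 1 lay below controls 1 and 3, so the groups overlapped. The log2 fold change was 0.23 (SE 0.13, 95% interval −0.047 to 0.51, unadjusted p = 0.0936 in limma), and it was 0.15 without control 2.

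The vesicle SNAREs were unequal. Vamp1 (synaptobrevin 1), the form that predominates in spinal cord and brainstem, had 19129, 18810.3 and 18287 in controls 1 to 3 and 20354, 19951 and 21017 in AAV-NDNF libraries 1 to 3. Every AAV-NDNF library was above every control, by little: the means were 18742 ± 425 against 20441 ± 538 and the fold change 0.13 (SE 0.099, unadjusted p = 0.232). Vamp2 (synaptobrevin 2), the main form of the forebrain, had 3182, 2496 and 3464 against 3208, 3198 and 3505 in the same order, with control 2 lowest and the other 5 libraries close together (fold change 0.13, and −0.0083 without control 2). Per kb of exon the ratio of Vamp2 to Vamp1 was 0.354 in control 2 and 0.421 to 0.506 in the other libraries.

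Stx1a, a plasma membrane SNARE, was the scarce member of this group. It had 123, 79.2 and 111 in controls 1 to 3 and 123, 100.2 and 84.3 in AAV-NDNF libraries 1 to 3, with control 2 lowest and the groups overlapping. The means were 104 ± 22.8 against 102 ± 19.3 (fold change −0.020, SE 0.25), and the fold change was −0.21 without control 2.

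**Figure D3:**
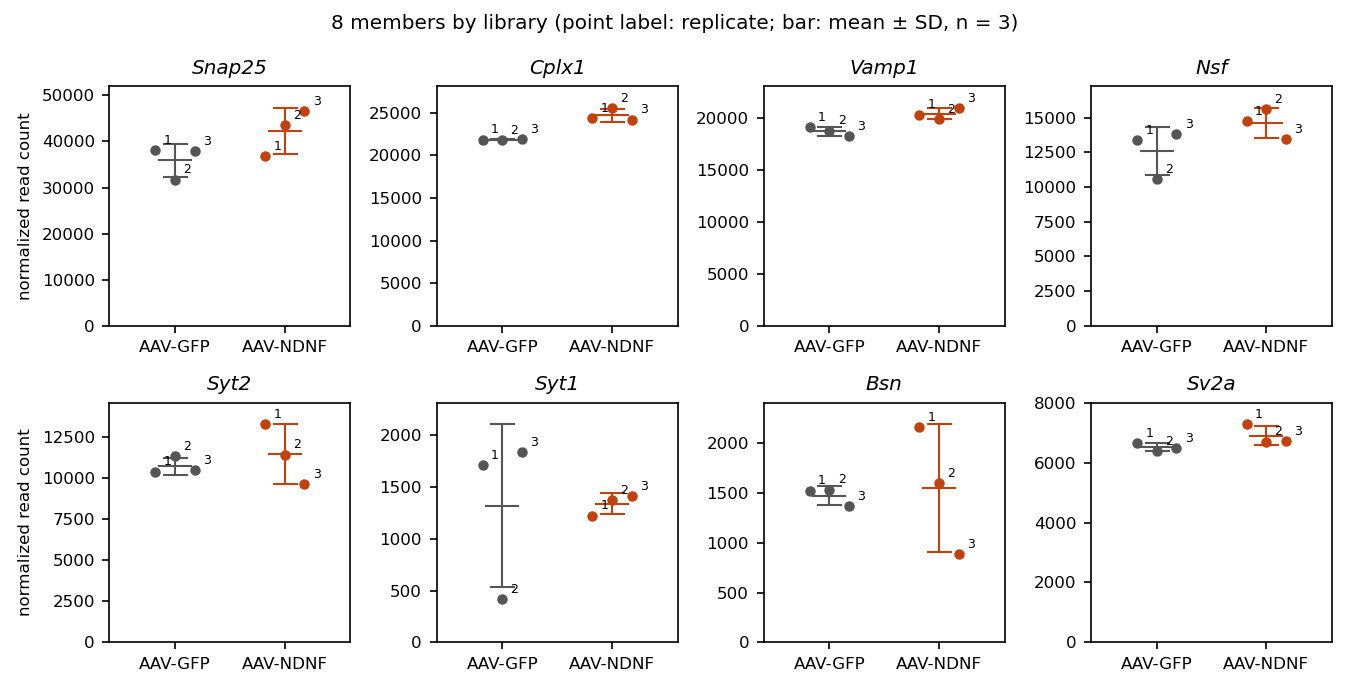
Normalized read counts (axes from 0) of 8 members in the 3 AAV-GFP (grey) and 3 AAV-NDNF (orange) libraries, numbered by replicate, with the mean and SD of each group. Cplx1, Vamp1 and Sv2a do not overlap between groups, Syt1 is low in control 2 (417), and the AAV-NDNF values of Bsn span 886 to 2161.

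Among proteins that act on the SNARE complex, Cplx1 had the steadiest controls. Cplx1 (chromosome 5, 108518554 to 108550024, minus strand) encodes complexin 1, which clamps the assembled complex until calcium arrives. Its normalized counts were 21864, 21787 and 21875 in controls 1 to 3 and 24336, 25589 and 24208 in AAV-NDNF libraries 1 to 3. The SD of the controls was 48.0, and all AAV-NDNF libraries lay above them. The fold change was 0.18 (SE 0.099, 95% interval −0.040 to 0.40, unadjusted p = 0.1, limma adjusted p = 0.996), 0.18 without control 2 and 0.19 without AAV-NDNF library 3. Cplx2, its paralogue, best known from the forebrain, had 2657, 1509.9 and 2439.6 against 2601, 2507 and 2133. Control 2 was the lowest of all, at 0.593 times the mean of the other controls, and the fold change went from 0.17 to −0.082 without it.

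Nsf, the ATPase that separates spent SNARE complexes, had 13397, 10587 and 13783 against 14766, 15612 and 13424, with control 2 lowest and an overlap at AAV-NDNF library 3 (fold change 0.22, SE 0.13). Without control 2 the Nsf difference was 0.10. Stxbp5 (tomosyn), which competes with Vamps for syntaxin, was 1306 ± 41.7 against 1403 ± 233 (fold change 0.089, and 0.23 without AAV-NDNF library 3).

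Stxbp2 and Stxbp4 were lower in the mean after AAV-NDNF. Stxbp2, which acts in granule release of blood and epithelial cells, had 229, 408 and 296 against 282, 221 and 231, with control 2 far above the other libraries; the fold change was −0.31 (SE 0.21) and −0.097 without control 2. Stxbp4 had 361, 305 and 272 against 273, 295 and 226, the groups overlapping (fold change −0.24, SE 0.17, and −0.13 without AAV-NDNF library 3). In all, 7 of the 10 SNARE regulators were above 0 and 3 below, with a median of 0.11, and without control 2 the split was also 7 and 3 (median 0.10).

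The role group called calcium sensors held all 16 synaptotagmins, among them forms that do not bind calcium, such as Syt11 and Syt13. It had the largest errors of the 6 role groups, with a median SE of 0.21 beside 0.11 to 0.18 in the other groups. Of 16 synaptotagmins, 12 were above 0 with all libraries (median 0.10), 10 in edgeR, and 5 without control 2 (median −0.14). Syt1 and Syt2 are the fast calcium sensors of vesicle fusion, Syt1 in most forebrain synapses and Syt2 in spinal cord, brainstem and the neuromuscular junction. Their upstream windows are printed because the level of Syt1 relative to Syt2 set control 2 apart. Each is the 250 bases before the more upstream of 2 start sites that RefSeq lists (GRCm38.p6, chr10:109010976-109011225 on the minus strand and chr1:134646362-134646611 on the plus strand), 5′ to 3′ along the gene, and neither holds any of the motifs searched below, so no letter is in capitals.
Syt1: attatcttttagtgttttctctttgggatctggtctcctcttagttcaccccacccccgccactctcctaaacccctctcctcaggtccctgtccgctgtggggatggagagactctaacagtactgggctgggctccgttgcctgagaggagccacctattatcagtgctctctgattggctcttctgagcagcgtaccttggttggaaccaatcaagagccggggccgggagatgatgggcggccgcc
Syt2: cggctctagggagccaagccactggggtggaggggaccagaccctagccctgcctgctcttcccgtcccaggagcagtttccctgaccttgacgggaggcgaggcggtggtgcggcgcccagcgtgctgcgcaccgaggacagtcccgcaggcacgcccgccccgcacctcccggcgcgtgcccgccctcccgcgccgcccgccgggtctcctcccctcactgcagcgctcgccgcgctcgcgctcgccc
The windows hold 56.4% and 76.0% G or C, beside a median of 64.2% over 66 windows of 300 bases of 53 members in the RefSeq table and 52.7% over all 32851.

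Syt1 had 1706, 417 and 1834 in controls 1 to 3 and 1222, 1375 and 1413 in AAV-NDNF libraries 1 to 3. Control 2 was at 0.236 times the mean of the other controls, which were themselves the highest of the 6. With all libraries the fold change was 0.29 (SE 0.55, 95% interval −1.04 to 1.62), and without control 2 it was −0.41 (unadjusted p = 0.00766, limma adjusted p = 0.516), the AAV-NDNF libraries then all lying below the 2 controls left. Syt2 had 10397, 11326 and 10469.7 in controls 1 to 3 and 13273, 11423 and 9638 in AAV-NDNF libraries 1 to 3, and control 2 was the highest control. Relative to Syt2, Syt1 counts were 0.164, 0.0368 and 0.175 in controls 1 to 3 and 0.0921, 0.12 and 0.147 in AAV-NDNF libraries 1 to 3, with control 2 the lowest.

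The low level of Syt1 in control 2 was shared by 5 other members. Syt5 had 137, 11.7 and 141 against 58.0, 76.6 and 145, Syt10 26.8, 3.91 and 29.9 against 34.5, 22.5 and 16.4 and Syt16 146, 48.9 and 208 against 108, 126 and 141, in controls 1 to 3 against AAV-NDNF libraries 1 to 3. Syt13, which lacks calcium binding, had 1071, 539 and 1118 against 968, 1036 and 930.0, and Rims3, a short RIM protein, 1065, 482 and 1122 against 959, 918 and 687. In these 6 members control 2 lay under 0.5 times the mean of the other controls, which held for 4.64% of all genes and 8.82% of members. With all libraries the fold changes were above 0, at 0.47 for Syt5, 0.12 for Syt16, 0.023 for Rims3, 0.60 for Syt10 and 0.18 for Syt13. Without control 2 all 5 were below 0, at −0.68, −0.48, −0.37 (unadjusted p = 0.042), −0.26 and −0.16 in the same order. The dorsal horn markers were low in the same library: the mean log2 level of the list, less that over the 6 libraries, was 0.70, −1.47 and 0.72 in controls 1 to 3 and −0.17, −0.056 and 0.27 in AAV-NDNF libraries 1 to 3. On this scale controls 1 and 3 were above every AAV-NDNF library. Without control 2, 14 of the 17 tested markers were below 0 (median −0.64). Of these, 6 had an unadjusted p under 0.05 in limma, beside 3.41% of all genes lower. The part of this marker difference in the members' values without control 2 was not tested. With the mean log2 level of the dorsal horn markers as a covariate the Syt1 fold change was 0.26 (SE 0.11, unadjusted p = 0.0439, limma adjusted p = 0.853), beside an SE of 0.55 without the covariate. Because that level was nearly equal in mean between the groups, the covariate could hardly move the fold change and mainly lowered its SE. Leaving control 2 out instead gave −0.41 for Syt1, the opposite sign. Glial markers also set control 2 apart. It was the highest library at 7 of 8 oligodendrocyte and 6 of 8 astrocyte markers, with mean log2 deviations of 0.26 and 0.19. The part of these glial differences in the members' values was not tested. In bulk tissue fewer cells of a type and less RNA per cell cannot be told apart.

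None of the other synaptotagmins had an unadjusted p under 0.05 with all libraries. Syt11, an abundant synaptotagmin that does not bind calcium, had 16720.1, 19194 and 16328 against 19145, 18789 and 17974, with control 2 the highest library. Syt4, a form found on dense-core vesicles, had 2237, 2077 and 2540.0 against 2305, 2701 and 2825 (fold change 0.19, SE 0.12, unadjusted p = 0.146); 14.5% of its exon bases are shared with an antisense gene, which makes this value uncertain. Syt7, the slow, high-affinity sensor, was 2156 ± 198 against 2058 ± 461, and Syt9, a fast sensor like Syt1, 168 ± 34.6 against 158 ± 25.2. The remaining 6 synaptotagmins (Syt3, Syt6, Syt12, Syt14, Syt15 and Syt17) had fold changes between −0.24 and 0.14. Syt12 shares 17.2% of its exon bases with a gene on the opposite strand.

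Active zone genes differed widely between the AAV-NDNF libraries. Of 10 members, 5 were above 0 and 5 below, with a median of 0.0024, and 7 of them were lowest in AAV-NDNF library 3. Without that library 9 of 10 were above 0, with a median of 0.18. Leaving out AAV-NDNF library 1 instead, the highest of the 6 at 6 of these genes, gave 3 of 10 above 0 and a median of −0.13. Bsn (bassoon), a giant scaffold that ties vesicles to the active zone, had 1522, 1530.4 and 1362 in controls 1 to 3 and 2161, 1594 and 886 in AAV-NDNF libraries 1 to 3. The AAV-NDNF libraries held both the highest and the lowest value of the 6, so the fold change of −0.019 carried an SE of 0.26. The Bsn fold change was 0.34 without AAV-NDNF library 3 (unadjusted p = 0.0257 in limma) and −0.31 without AAV-NDNF library 1. Pclo (piccolo), its homologue, had 1644, 1343 and 1598 against 1733, 1708 and 1382, a narrower range with the groups overlapping. Rims1, which links the vesicle to calcium channels, had 1319, 1039 and 1267 against 1383, 1503 and 1152 with control 2 lowest (fold change 0.15, SE 0.14, 0.050 without control 2 and 0.26 without AAV-NDNF library 3). Rims2, Rims4, Unc13b and Unc13c lay between −0.088 and 0.11.

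Unc13a (Munc13-1), the priming factor that opens syntaxin-1, had 2262, 2139 and 2323 in controls 1 to 3 and 2682, 2181 and 1762 in AAV-NDNF libraries 1 to 3. AAV-NDNF library 1 was the highest and library 3 the lowest, at 0.725 times the mean of the other AAV-NDNF libraries (fold change −0.042, SE 0.15, 95% interval −0.36 to 0.28), and without library 3 the fold change was 0.11. Unc13a and Syn1 are shown with their promoter motifs, since both are neuron-restricted genes and these were the member windows that held a core motif of RE1, the element bound by the repressor REST that keeps neuronal genes off elsewhere. The motifs searched on both strands were the left and right core motifs of RE1, TTCAGCACC and GGACAGCGC, and the cyclic AMP response element TGACGTCA; in the 300-base RefSeq windows they occurred in 0.371%, 0.405% and 1.79% of all 32851, and in 2, 1 and 2 of the 66 windows of members. In the runs below the capitals mark matches, reading 5′ to 3′ along each gene; Unc13a (chr8:71671725-71671754, minus strand) shows bases 4 to 33 after its start site, where both RE1 motifs lie on the opposite strand with 8 bases between them, and Syn1 (chrX:20920919-20921168, minus strand) shows the 250 bases before its start site, with the left RE1 motif and the TGACGTCA element. A match is a description of letters and no measure of binding.
Unc13a: agGCGCTGTCCgcgcccccGGTGCTGAAgc
Syn1: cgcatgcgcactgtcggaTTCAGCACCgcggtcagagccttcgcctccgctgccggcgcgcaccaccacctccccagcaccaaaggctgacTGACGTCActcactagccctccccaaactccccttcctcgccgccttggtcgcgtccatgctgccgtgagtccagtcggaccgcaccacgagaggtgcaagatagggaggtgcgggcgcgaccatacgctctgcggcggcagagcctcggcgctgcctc

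Exon length went with the level of AAV-NDNF library 3 relative to AAV-NDNF libraries 1 and 2. The controls were not part of this comparison. Low values in library 3 and high values in libraries 1 and 2 therefore cannot be told apart by it. Among members under 3 kb of exon the median level in that library was 1.09 times the mean of AAV-NDNF libraries 1 and 2 (9 members), and it was 0.948 for 3 to 6 kb (33 members), 0.884 for 6 to 10 kb (15 members) and 0.794 for 10 kb or more (11 members). All genes tested gave 1.15, 1.002, 0.906 and 0.82 in the same classes, which were chosen after the values were seen. Without AAV-NDNF library 3, 10 members had an unadjusted p under 0.05 in limma, 9 higher (among them Nsf, Syn1, Unc13c, Stxbp5, Sv2c, Stxbp5l and Bsn) and 1 lower (Vamp8), beside 6.59% of all genes in either direction, 2.12% higher and 4.47% lower. None of the 10 had an adjusted p under 0.05, where 0.0633% of all genes did; 49 of 68 members were then above 0, beside 51.1% of all genes. The part of transcript length in these differences was not tested.

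The proteins of the vesicle itself were all higher in the mean after AAV-NDNF, 7 of 7 under every scaling tried (5 to 7 with single libraries left out, 6 without control 2), with fold changes from 0.015 to 0.15 and none past the test. The 12 pan-neuronal markers, general genes of neurons, were also 12 of 12 above 0 (median 0.15, beside 0.10 for the vesicle proteins). Syn1 (synapsin 1), which tethers vesicles to actin, had 4490.5, 3788 and 4545 in controls 1 to 3 and 5016, 5003 and 4184 in AAV-NDNF libraries 1 to 3. Its groups overlapped at AAV-NDNF library 3 (fold change 0.15, SE 0.12). Syn2 had 3055, 2480.3 and 3241 against 3196, 3432 and 3065 (fold change 0.15) and was lowest in control 2. Syp (synaptophysin), an abundant vesicle membrane protein, had 10209, 8654 and 9580.0 against 9583, 9714 and 11205 (fold change 0.10, SE 0.11). The groups of Syp overlapped, and 16.8% of its exon bases are shared with an antisense gene. Syn3, the third synapsin, had a fold change of 0.015, and 14.1% of its exon bases are shared with genes on the opposite strand. Without control 2 the differences of Syn1, Syn2 and Syp were 0.063, 0.037 and 0.036.

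The SV2 glycoproteins, which set the readiness of vesicles and serve as receptors of botulinum toxin, did not all behave alike between libraries. Sv2a had 6648, 6395 and 6495 in controls 1 to 3 and 7280.2, 6704 and 6722 in AAV-NDNF libraries 1 to 3. Each AAV-NDNF library lay above each control, the nearest pair being 6704 and 6648 (fold change 0.083, SE 0.10, unadjusted p = 0.426). Sv2b had 2109.5, 2468 and 2090.3 against 2501, 2427 and 2354, its controls 1 and 3 lowest (fold change 0.13, and 0.21 without control 2, unadjusted p = 0.0871). Sv2c, the form known from basal ganglia and motor neurons, had 6926, 8244 and 6465 against 9115, 8349.8 and 5546, with AAV-NDNF library 3 lowest of all. Relative to Sv2a, Sv2c counts were 1.04, 1.29 and 0.995 in controls 1 to 3 and 1.25, 1.25 and 0.825 in AAV-NDNF libraries 1 to 3.

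Members that serve other membranes made up 20 of the 68. Of these, 12 were above 0 and 8 below, with a median of 0.013. Without control 2 the split was 8 above and 12 below (median −0.0081). Without AAV-NDNF library 3, 8 were above 0 (median −0.031). Stx5a, the SNARE of the Golgi, had the smallest p of any member: 870.4, 739 and 865 in controls 1 to 3 and 742, 662 and 702 in AAV-NDNF libraries 1 to 3. AAV-NDNF library 1 lay just above control 2, so the groups overlapped (fold change −0.23, SE 0.12, unadjusted p = 0.0797, limma adjusted p = 0.996), and without control 2 it was −0.31 (unadjusted p = 0.0325, limma adjusted p = 0.937). Snap91 (AP180), a clathrin assembly protein that retrieves vesicle membrane and shares only the letters of its name with SNAP-25, had 4048, 3867 and 4076 against 4500.5, 4639 and 4088 without overlap (fold change 0.14, SE 0.10). Snap47 had 4522, 3204 and 4438 against 4001, 4594 and 5153, with control 2 lowest (fold change 0.19, and 0.025 without control 2). Snap47 shares 11.6% of its exon bases with a gene on the opposite strand. Of all 68 members, 8 share over 5% of their exon bases with another gene.

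Of the members that serve granule release in immune cells, Stx11 and Unc13d were scarce. Stx11, which acts in cytotoxic lymphocytes and macrophages, had 26.8, 13.7 and 20.3 in controls 1 to 3 and 7.57, 21.4 and 7.67 in AAV-NDNF libraries 1 to 3, a low count with overlap between groups (fold change −0.79, SE 0.54, unadjusted p = 0.171). Unc13d (Munc13-4), which primes such granules and is counted with its family among the active zone genes, was 26.1 ± 9.88 against 18.9 ± 7.69. Vamp8, of lysosomes and secretory granules, had 176, 172 and 157 against 109, 122 and 211, lowest in AAV-NDNF libraries 1 and 2 and highest in library 3, and its fold change was −0.25 with all libraries and −0.54 without AAV-NDNF library 3 (unadjusted p = 0.0176). Beside these, all 14 microglia markers were below 0 (median −0.54), their sum being 26168 to 28793 in controls and 18103 to 21999.8 after AAV-NDNF. Of 10 cytotoxic and mast cell granule genes, only Kit reached a mean of 10; Prf1, Gzma, Gzmb, Gzmk and Nkg7 were below it and 4 had no row in the table used. The part of these cells in the Stx11, Unc13d and Vamp8 values was not tested. The other 15 members of this group, among them the plasma membrane SNAREs Stx4a and Snap23 and the endosomal Stx7, Stx12, Vamp3 and Vamp4, had fold changes between −0.11 and 0.22.

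**Figure D4:**
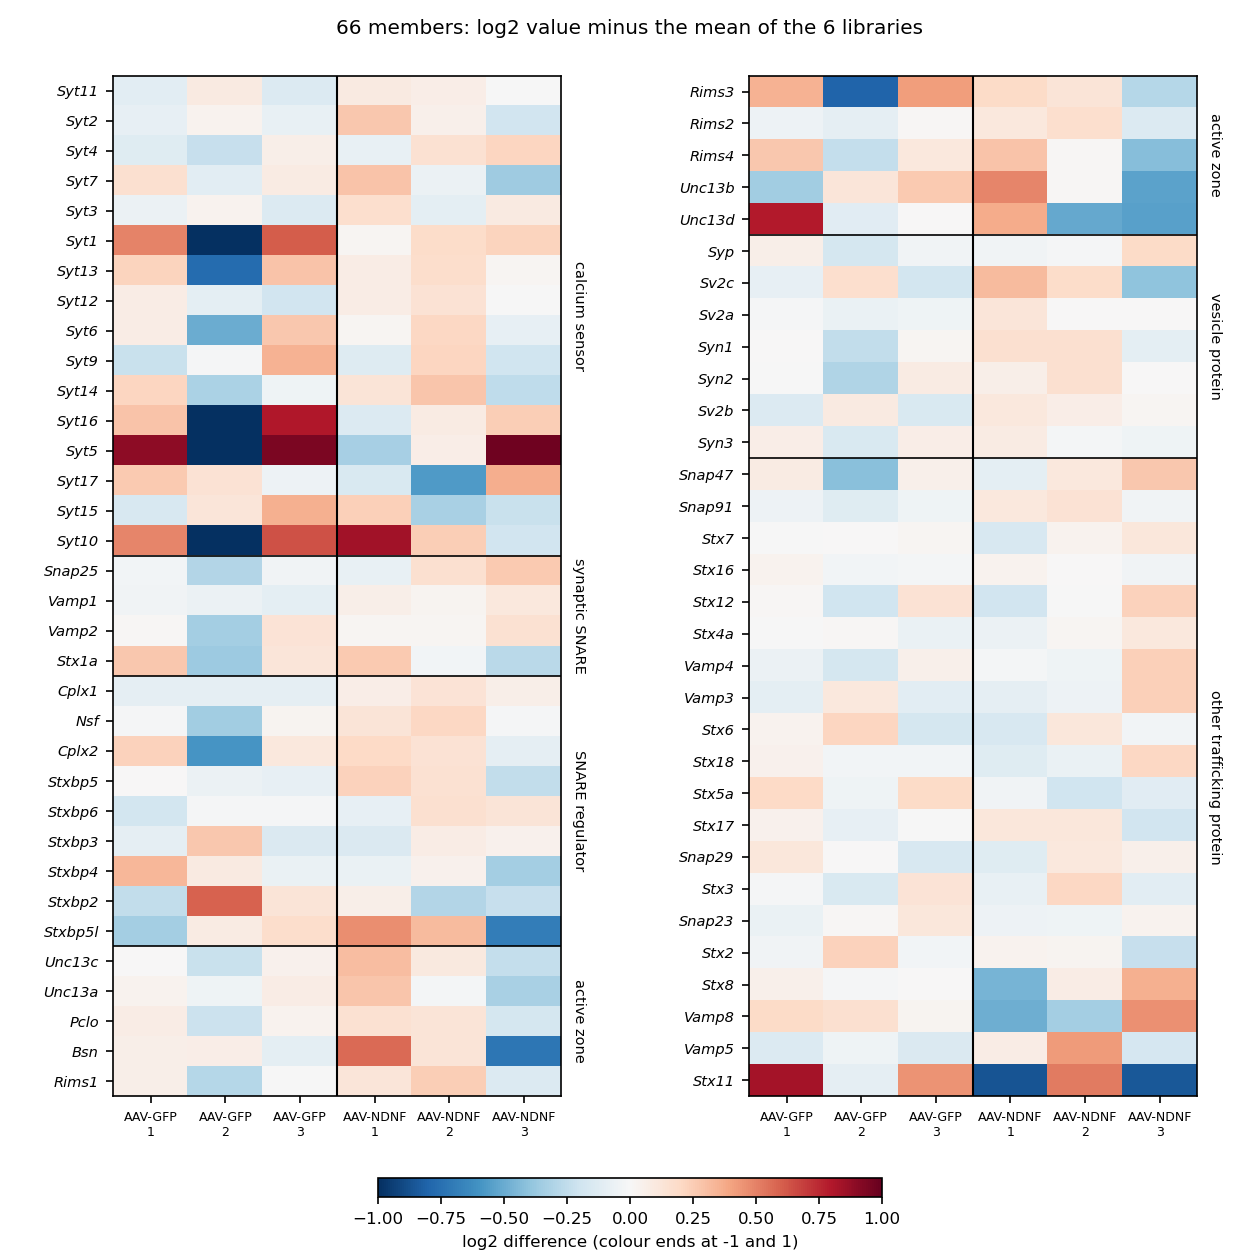
Log2 value of each of 66 members in each library minus its mean over the 6 libraries (colour scale from −1 to 1; stronger values take the end colour), rows grouped by role and ordered by level. The dark blue cells of control 2 fall on Syt1, Syt5, Syt10 and Syt16, and AAV-NDNF library 3 is blue across the active zone rows.

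Seen by library, control 2 was the lowest of the 6 at 29 members (42.6%, beside 20.2% of all genes), including 8 of 16 calcium sensors, 4 of 5 synaptic SNAREs and 5 of 7 vesicle proteins. AAV-NDNF library 3 was the lowest at 17 members (25.0%, beside 26.3%) and the highest at 16, where 26.5% of all genes were highest, and AAV-NDNF library 1 the highest at 20 (29.4%, beside 17.4%). The calcium sensors, as mean log2 level minus that over the 6 libraries, stood at 0.15, −0.56 and 0.23 in controls 1 to 3 and 0.086, 0.050 and 0.039 in AAV-NDNF libraries 1 to 3. For the active zone genes these values were 0.12, −0.18 and 0.086 in controls 1 to 3 and 0.29, 0.040 and −0.35 in AAV-NDNF libraries 1 to 3, and for the vesicle proteins −0.015, −0.098 and −0.035 in controls 1 to 3 and 0.12, 0.078 and −0.046 in AAV-NDNF libraries 1 to 3. The first of these is set apart by control 2, and the second by AAV-NDNF libraries 1 (highest) and 3 (lowest). In the third the groups overlap at AAV-NDNF library 3. Pan-neuronal markers gave −0.074, −0.16 and −0.014 in controls 1 to 3 and −0.035, 0.12 and 0.16 in AAV-NDNF libraries 1 to 3, and motor neuron markers −0.077, 0.11 and −0.061 in controls 1 to 3 and −0.12, 0.0069 and 0.14 in AAV-NDNF libraries 1 to 3. On this mean log2 scale control 2 was the lowest library for pan-neuronal markers and the second highest for motor neuron markers, while its summed pan-neuronal level of 166729 was the highest of the controls.

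**Figure D5:**
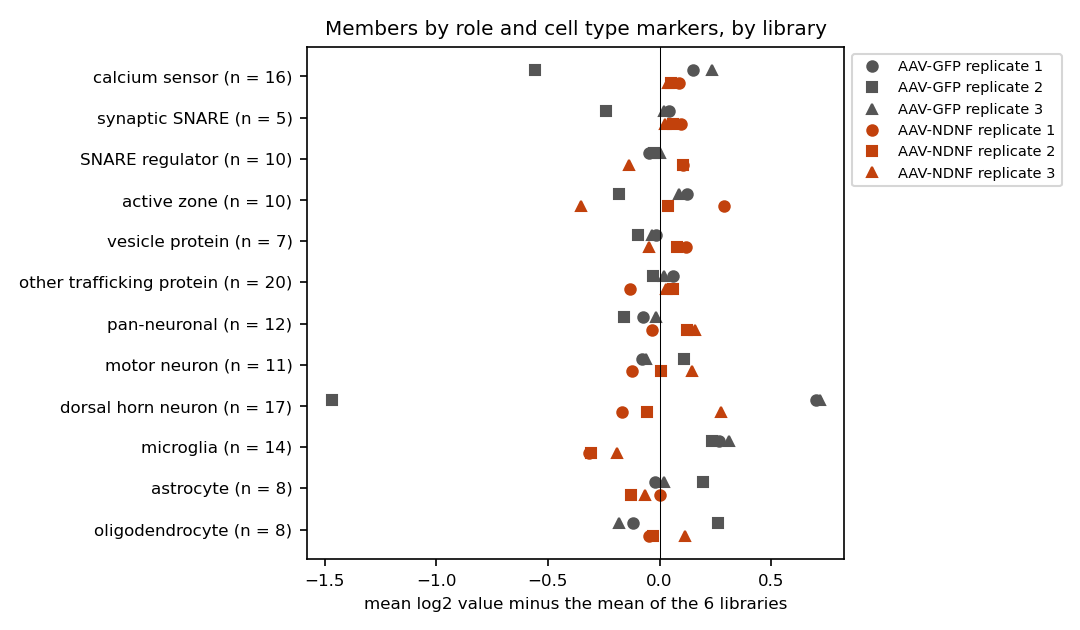
Mean log2 value minus the mean of the 6 libraries (x axis) for the 6 role groups of members and 6 marker lists, 1 symbol per library, grey for AAV-GFP and orange for AAV-NDNF. Control 2 (grey square) lies at −1.47 for dorsal horn markers and −0.56 for calcium sensors, and the microglia list separates the groups.

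Genes of the same pathway outside the name rule were taken from 3 lists. Of 23 scaffold and priming genes, 17 were above 0 (median 0.11) and 0 had an adjusted p under 0.05. Rab3b, a vesicle GTPase, had the smallest p of the list, at 238 ± 33.5 against 325 ± 59.2 (fold change 0.44, unadjusted p = 0.0352), followed by Napg, an adaptor of NSF, at 2785 ± 123 against 3209 ± 275. Of 17 tested vesicle membrane and filling genes, 14 were above 0 (median 0.097), with 0 past the adjusted threshold. The smallest p there were those of Atp6v1g2, a proton pump subunit, at 3978 ± 627 against 4734 ± 521, and Slc32a1, which loads GABA and glycine into vesicles, at 2402, 2312 and 2419 against 3067, 2743 and 2444 without overlap. Of 17 vesicle retrieval genes, 14 were above 0 (median 0.079), again with 0 past the adjusted threshold, Dnm1 (dynamin 1) being 11837 ± 197 against 13558 ± 1833 and Sh3gl2 (endophilin A1) 4307 ± 198 against 4833 ± 358. Without control 2 the counts above 0 were 13 of 23, 11 of 17 and 13 of 17, with medians of 0.0079, 0.045 and 0.075.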

How the data were processed

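Polyadenylated RNA of the ventral lumbar cord was sequenced in 6 libraries, 3 per group. Per the submitters' processing notes the tools were cutadapt, HISAT2, HTSeq and DESeq2, with build mm10; for versions, annotation and strand setting, values are not given in the sources used here. Per the file headers and values, the deposited sample columns are a normalized signal, gene read counts divided by the authors by a size factor per library, and the authors' mean of them. Whole reads were recovered (100% of values within 0.001 of a whole multiple). Further columns of the same table hold the authors' deposited log2 fold change, its standard error, a test score and p-values per gene.

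Genes with a mean of at least 10 (17372) were tested with limma 3.58.1 (trend, robust variances, two-sided, Benjamini-Hochberg adjusted) in R 4.3.3, on log2(value + 1), which understates changes of low genes. This filter treats both groups alike and takes in every member; edgeR 4.0.16 on whole reads was an alternative. Other alternatives were TMM and upper quartile scaling, 2 other filters, pseudocounts of 0.5 and 5, a replicate block, a dorsal horn covariate and leaving out each library. The code was tested on simulated data. No pair of replicates agreed within counting noise: chi-square per degree of freedom over genes was at least 4.01. With separate mice not stated, p-values measure the spread between these libraries.

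Members and lists were chosen with earlier results of these data known. Named were Ndnf, 26 well-known members with any value, the 12 members with the smallest p with all libraries, the 6 with the smallest without control 2, and 2 genes per outside list. Other members named were picked after their values were seen. For 2 members single values are not reported here; they remain in all counts and medians. GENCODE M21 held all 68 member symbols; promoters are RefSeq's (GRCm38.p6), which held 53 of the 68.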

Additional observations from a re-analysis of the deposited data

How the results depend on the processing

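No member had an adjusted p under 0.05 in any of the 16 alternatives run. The number of members above 0 stayed at 47 under both other scalings, both other pseudocounts, edgeR and the authors' deposited table, and was 34 to 49 when single libraries were left out. Both other filters and the replicate block also gave 47, but by design they leave each member's fold change as it was. The dorsal horn covariate gave 47 too, and it could move fold changes little, its mean being nearly equal between the groups. The median fold change of the members was 0.00323 to 0.108 with single libraries left out, lowest without control 2. The number with an unadjusted p under 0.05 was 0, and 2 (Syt1 and Snap25) with the dorsal horn covariate; without single libraries it was 0 to 10, highest without AAV-NDNF library 3. Over all genes tested, 0 had an adjusted p under 0.05 with limma, 3 without the filter, 7 with the replicate block, 5 with the dorsal horn covariate, 54 in the authors' deposited table, and 0 to 43 with single libraries left out, most without control 2. Of 560 values of the 35 members chosen by the naming rule under alternatives, 31 changed sign, none with an adjusted p under 0.05. In edgeR and in the authors' deposited table these were Syt5 (−0.061 and −0.052), Syt16 (−0.10 and −0.099), Rims3 (−0.059 and −0.057) and Bsn (0.072 and 0.073). With single libraries left out, sign changed within the ranges of Syt5 (−0.68 to 1.06), Syt16 (−0.48 to 0.56), Rims3 (−0.37 to 0.24), Syt1 (−0.41 to 0.66), Bsn (−0.31 to 0.34), Stx1a (−0.21 to 0.11), Syt9 (−0.21 to 0.074), Stxbp5 (−0.0026 to 0.23), Pclo (−0.019 to 0.18), Syt7 (−0.25 to 0.070), Unc13a (−0.19 to 0.11), Cplx2 (−0.082 to 0.33), Vamp2 (−0.0083 to 0.23), Sv2c (−0.076 to 0.28) and Syt2 (−0.031 to 0.20); the cause was not tested. Of members outside that rule, sign also changed without control 2 at, among others, Syt10 (0.60 to −0.26), Syt13 (0.18 to −0.16), Syn3 (0.015 to −0.057) and Unc13b (−0.025 to 0.029), the last also in the authors' deposited table (0.018). Replicate numbers did not pair the libraries: deviations of same-numbered libraries correlated at −0.088, 0.045 and 0.070 across genes. The replicate block left 0 members with an unadjusted p under 0.05. Being balanced over the groups, it cannot change a fold change, so 47 above 0 and a median of 0.077 stayed by design. Between libraries of a group, the members' median log2 deviation varied with a pooled SD of 0.063.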
